A study of Homo sapiens with 6 samples.

Results

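The ERK pathway feedback genes described here are *DUSP1*, *DUSP4*, *DUSP5*, *DUSP6*, *SPRY1*, *SPRY2*, *SPRY4*, *SPRED1*, *ETV5* and *PHLDA1*. They were chosen by name as genes that ERK signaling induces and whose products, for most of them, restrain the same pathway. These were 10 of the 58676 genes of the count table, and all 10 were among the 19072 genes that reached the minimum of 10 counts over the 6 libraries and were tested. RNA-Seq of polyA RNA was performed in MRC5 cells, a line of human fetal lung fibroblasts that was not engineered. In the control group (control ATII CM, 3 libraries), MRC5 cells were kept for 24 h in conditioned media (CM) from ATIIER:KRASV12 cells that had not received 4-hydroxytamoxifen (4-OHT). In the 4-OHT group (4-OHT ATII CM, 3 libraries), the CM came from the same cells after 24 h with 4-OHT, which activates a RAS protein fused to an estrogen receptor (ER) domain in this human alveolar type II (ATII) cell line. Both groups therefore received CM from cells that carry the fusion, and neither received CM that held 4-OHT without RAS activation, so that 4-OHT left in the CM and secreted factors cannot be told apart. The labels do not say whether replicates came from separate cultures, and p values then measure the spread between these libraries, which may be technical.

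In the ERK pathway, growth factor receptors pass a signal through adaptors and RAS to the kinases RAF, MEK and ERK. Active ERK turns on transcription factors and, with them, genes that feed back on the pathway: dual-specificity phosphatases (DUSPs) remove phosphate from ERK and related kinases, and Sprouty and SPRED proteins act on signaling at the level of receptors and RAS. In fibroblasts, the pathway is known for its part in proliferation and migration. mRNA levels of such genes are often read as a trace of pathway activity, but phosphorylated ERK itself was not measured in these libraries.

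Totals of the libraries ranged from 17691849 counts (control replicate 2) to 26389449 counts (4-OHT replicate 3), and the square root of the common dispersion was 4.36%. Control replicate 2 stood apart from the other libraries on the first component of a principal component analysis (-41.7, against -7.43 to 21.5 for the other 5). On the second, control replicate 1 was the most distant (35.3, against -20.1 to 17.4). These components held 24.5% and 21.8% of the variance. For the feedback genes that passed the test, and where control replicate 2 changed a call, the value without that library is also given. Levels are given as CPM, the counts of a gene scaled to a common library total, which was normalized by TMM. The 12 fibroblast markers were all tested and summed to 41850 to 45570 CPM in control ATII CM and to 43790 to 45550 CPM in 4-OHT ATII CM, with 4 of them up and 1 down (2.95% and 2.76% of all genes tested). Of 14 epithelial markers, 5 were at 0 in every library, including *NKX2-1* and *SFTPA1*, and the sum was 10.5 to 12.4 CPM in control and 9.42 to 10.1 CPM in 4-OHT ATII CM. *KRT19* made up most of this sum, with 139 to 180 counts a library. *KRT7* (26 to 43 counts) and *CLDN7* (12 to 27 counts) were also present in every library. The 6 endothelial and leukocyte markers summed to 0.375 to 0.616 CPM in control and 0.320 to 0.495 CPM in 4-OHT ATII CM. *PECAM1*, *CDH5* and *CD3E* were at 0 throughout, and *VWF* had 5 to 12 counts a library.

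Promoter sequences are shown for *SPRY1*, whose change between the groups was the largest of the 10 genes, and for its relative *SPRY2*, which did not pass the test. Each is the 250 bases before a RefSeq transcription start on GRCh38.p14, on the gene's own strand, and neither overlaps an exon of the deposited table. The *SPRY1* sequence is at chr4:123396545-123396794 on the plus strand and the *SPRY2* sequence at chr13:80341127-80341376 on the minus strand. That of *DUSP1* (chr5:172771196-172771445, minus strand), the immediate early gene of the group, is shown beside them. Capitals mark matches to the motifs searched.
SPRY1: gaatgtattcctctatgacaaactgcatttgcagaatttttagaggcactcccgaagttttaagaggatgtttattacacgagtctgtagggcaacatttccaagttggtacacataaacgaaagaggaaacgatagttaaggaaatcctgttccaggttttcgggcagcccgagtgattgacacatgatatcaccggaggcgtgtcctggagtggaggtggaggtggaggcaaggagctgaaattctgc
SPRY2: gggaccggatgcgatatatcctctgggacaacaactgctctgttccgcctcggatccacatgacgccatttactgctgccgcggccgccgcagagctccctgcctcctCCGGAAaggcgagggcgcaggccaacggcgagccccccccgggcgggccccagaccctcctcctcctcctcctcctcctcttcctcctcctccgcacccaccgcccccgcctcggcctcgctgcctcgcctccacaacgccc
DUSP1: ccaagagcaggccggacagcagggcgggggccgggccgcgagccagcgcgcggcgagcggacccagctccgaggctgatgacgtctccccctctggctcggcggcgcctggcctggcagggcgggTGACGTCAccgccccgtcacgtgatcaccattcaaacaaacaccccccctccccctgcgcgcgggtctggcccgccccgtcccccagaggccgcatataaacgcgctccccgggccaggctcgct
Motifs were searched on both strands, as the cAMP response element (CRE) TGACGTCA, the AP-1 site TGANTCA, the ETS core CCGGAA and the CArG box bound by SRF. The *SPRY2* sequence shown held an ETS core and that of *DUSP1* a CRE, and the *SPRY1* sequence shown held none of these. RefSeq gives further starts for both Sprouty genes: a second *SPRY1* window, which lies in exons of the deposited table, held an ETS core, and 2 further *SPRY2* windows held no motif, so that the windows do not tell the genes apart. Among 35116 promoter windows of the same length, 14.5% held the ETS core, 1.65% the CRE, 6.57% the AP-1 site and 1.16% the CArG box. In all, 10 windows from 7 of the 10 genes were searched. The remaining genes had no window in this search, which does not show that they lack a RefSeq start. A match describes the letters and not a bound site.

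Of the 10 feedback genes, 2 were upregulated in 4-OHT ATII CM (*SPRY1* and *PHLDA1*) and 2 were downregulated (*DUSP5* and *DUSP6*) at an adjusted p below 0.05 in edgeR. Over all genes tested, 2.95% were up, 2.76% down and 5.72% either. The remaining 6 genes did not pass the test. By point estimate, 2 genes were higher and 8 lower, with log2 fold changes from -0.33 to 0.47 and a median of -0.16, against a median of -0.002 over all genes tested. The median size of the change, without its sign, was 0.18 on the log2 scale for the feedback genes and 0.12 for all genes tested. The groups did not overlap in 6 of the 10 genes, against 22.1% of all genes tested, and 7 were below an unadjusted p of 0.05, against 17.3% of all genes tested. All genes tested include some with 10 counts in all, while *DUSP4*, the scarcest feedback gene, had 469, so these shares are at an unlike depth. With filterByExpr, an edgeR filter that dropped more genes of low count, 583 were up and 589 down of 14599 tested. RNA came from whole cultures, in which fewer cells with a transcript and less transcript per cell cannot be told apart.

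**Figure D1:**
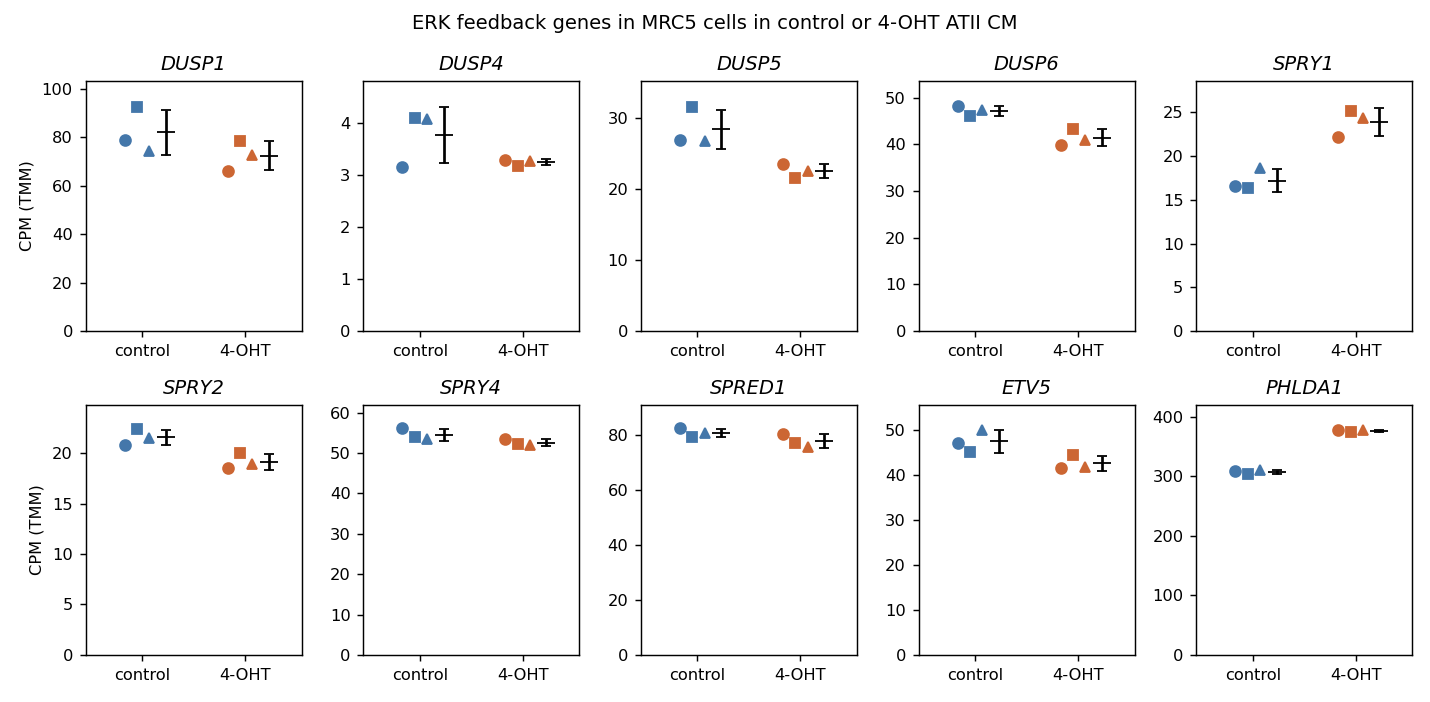
Levels of the 10 feedback genes in CPM (y axis, TMM-normalized, starting at 0) in the 3 control (blue) and 3 4-OHT (orange) libraries, with circles, squares and triangles for replicates 1, 2 and 3 and black bars for mean ± SD. *SPRY1* and *PHLDA1* lie higher in all 4-OHT libraries, *DUSP5*, *DUSP6*, *SPRY2* and *ETV5* lie lower in all of them, and the groups overlap in *DUSP1*, *DUSP4*, *SPRY4* and *SPRED1*.

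The 4 DUSP phosphatases among the feedback genes were lower by point estimate, and the test called *DUSP5* and *DUSP6*. *DUSP5* (ENSG00000138166, chr10:110497838-110511544, plus strand, GRCh38) encodes a nuclear phosphatase selective for ERK. Its level was 26.9, 31.5 and 26.7 CPM in control replicates 1 to 3 and 23.5, 21.5 and 22.5 CPM in 4-OHT replicates 1 to 3. Each 4-OHT library was below each control library, and control replicate 2 was the highest of all. *DUSP5* fell by 20.4% (log2 fold change -0.33, SE 0.069, 95% CI -0.48 to -0.18, adjusted p = 0.00928 in edgeR). Without control replicate 2, the log2 fold change was -0.25 (adjusted p = 0.0175), and without 4-OHT replicate 2 the call was lost (adjusted p = 0.0672).

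*DUSP6* (ENSG00000139318, chr12:89347232-89353271, minus strand) encodes the cytoplasmic phosphatase of ERK, a common readout of the pathway. Its level was 48.2, 46.1 and 47.3 CPM in control and 39.9, 43.4 and 40.9 CPM in 4-OHT ATII CM. The groups did not overlap, and 4-OHT replicate 2 was the nearest to the controls. *DUSP6* fell by 12.3% (log2 fold change -0.19, SE 0.046, 95% CI -0.29 to -0.091, adjusted p = 0.0231 in edgeR). This call was close to the threshold: it was lost when libraries were thinned to the smallest total (adjusted p = 0.0748), and without control replicate 1 (0.0744), control replicate 3 (0.0682), 4-OHT replicate 1 (0.104) or 4-OHT replicate 3 (0.105). Without control replicate 2, the log2 fold change was -0.20 (adjusted p = 0.0111 in edgeR). A gene on the opposite strand, ENSG00000274021, shares 40.5% of the exon bases of *DUSP6*. It had 97 counts over all libraries against 5954 for *DUSP6*. The strand setting is not given, so these counts do not show whether *DUSP6* reads in the shared bases were left out. The level of *DUSP6* per exon length has the same limit.

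*DUSP1* (ENSG00000120129, chr5:172768090-172771195, minus strand) encodes a nuclear phosphatase of p38, JNK and ERK, and the gene is induced within minutes by mitogens and stress. Its level was 79.0, 92.5 and 74.5 CPM in control and 66.3, 78.3 and 72.6 CPM in 4-OHT ATII CM. The groups overlapped, with control replicate 3 inside the range of the 4-OHT libraries. The log2 fold change was -0.17 (SE 0.069, 95% CI -0.32 to -0.027, adjusted p = 0.189 in edgeR). Without control replicate 2 it was -0.082 (adjusted p = 0.452). With no filter on low counts *DUSP1* passed the threshold (adjusted p = 0.00471). That edgeR fit also gave *HRAS*, with 122, 329 and 7 counts in the 4-OHT libraries, an adjusted p of 3.45e-24. Calls made without the filter therefore need caution.

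*DUSP4* (ENSG00000120875), which encodes another nuclear phosphatase of ERK and JNK, was the scarcest of the 10, with 67 to 92 counts in each library. It was listed at 3.14, 4.09 and 4.06 CPM in control and at 3.29, 3.17 and 3.27 CPM in 4-OHT ATII CM. Control replicate 1 was below all 4-OHT libraries, while the other controls were above them. Its log2 fold change was -0.21 (SE 0.15, adjusted p = 0.533 in edgeR), and the 95% CI, -0.53 to 0.11, was the widest of the group and held both 0 and the estimate of *DUSP5*. The estimate was -0.33 without control replicate 1 (adjusted p = 0.331) and -0.15 without control replicate 2 (adjusted p = 0.71), both in edgeR.

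Among the 4 Sprouty and SPRED genes, *SPRY1* rose and the other 3 did not pass the test. *SPRY1* (ENSG00000164056, chr4:123396795-123403760, plus strand) encodes an inhibitor of receptor tyrosine kinase signaling to RAS and ERK. Its level was 16.6, 16.3 and 18.7 CPM in control and 22.2, 25.2 and 24.4 CPM in 4-OHT ATII CM. Every 4-OHT library was above every control library, and the gap between the groups was wider than the range of either. *SPRY1* rose by 39.0% (log2 fold change 0.47, SE 0.073, 95% CI 0.32 to 0.63, adjusted p = 0.000955 in edgeR), the largest change among the 10 genes in this fit. It was called under all 15 alternative settings, with adjusted p up to 0.0117, and its log2 fold change without control replicate 2 was 0.44.

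*SPRY2* (ENSG00000136158, chr13:80335976-80340951, minus strand) encodes a Sprouty protein of the family that limits FGF signaling while the lung branches. Its level was 20.9, 22.3 and 21.5 CPM in control and 18.5, 20.1 and 18.9 CPM in 4-OHT ATII CM. All 4-OHT libraries were below all controls, but the difference did not pass the test (log2 fold change -0.17, SE 0.064, 95% CI -0.30 to -0.030, adjusted p = 0.170 in edgeR), nor under any of the 15 alternatives. *SPRY4* (ENSG00000187678, chr5:142310427-142326455, minus strand), another Sprouty inhibitor, was at 56.1, 54.0 and 53.4 CPM in control and at 53.5, 52.3 and 51.9 CPM in 4-OHT ATII CM, with overlapping groups. The log2 fold change of *SPRY4* was -0.052 (95% CI -0.14 to 0.033, adjusted p = 0.574 in edgeR), and -0.032 without control replicate 1.

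*SPRED1* (ENSG00000166068, chr15:38252326-38357249, plus strand) encodes a Sprouty-related protein that brings neurofibromin to RAS at the membrane. Its level was 82.5, 79.3 and 80.8 CPM in control and 80.6, 77.4 and 75.7 CPM in 4-OHT ATII CM. Its groups overlapped, with a log2 fold change of -0.055 (95% CI -0.14 to 0.028, adjusted p = 0.532 in edgeR). The intervals of *SPRY4* and *SPRED1* leave out a change as large as that of *SPRY1* in either direction.

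*ETV5* and *PHLDA1* are the members outside these families. *PHLDA1* (ENSG00000139289, chr12:76025447-76033932, minus strand) encodes a pleckstrin homology-like domain protein that is induced by growth factors and ERK. Its level was 309.4, 303.8 and 310.6 CPM in control and 377.6, 374.2 and 377.7 CPM in 4-OHT ATII CM. The spread within a group was 1.18% of the mean in control and 0.531% in 4-OHT ATII CM, and the groups lay far apart by comparison. *PHLDA1* rose by 22.3% (log2 fold change 0.29, SE 0.030, 95% CI 0.23 to 0.35, adjusted p = 3.7e-05 in edgeR), with the smallest p value of the 10 genes. It was called under all 15 alternatives, with adjusted p up to 0.000796, and its log2 fold change without control replicate 2 was 0.28. The antisense gene *PHLDA1-AS1* had 8 counts in all, against 46595 for *PHLDA1*.

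*ETV5* (ENSG00000244405, chr3:186046308-186110318, minus strand) encodes an ETS transcription factor of the PEA3 group, downstream of FGF and ERK. Its level was 47.0, 45.1 and 50.0 CPM in control and 41.5, 44.5 and 41.7 CPM in 4-OHT ATII CM. The groups did not overlap, though control replicate 2 and 4-OHT replicate 2 lay close together. The log2 fold change was -0.16 (SE 0.049, 95% CI -0.26 to -0.052) and narrowly missed the threshold (adjusted p = 0.0819 in edgeR). It passed without control replicate 2 (log2 fold change -0.19, adjusted p = 0.0201) and with no filter on low counts (adjusted p = 0.0493), where calls need caution.

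**Figure D2:**
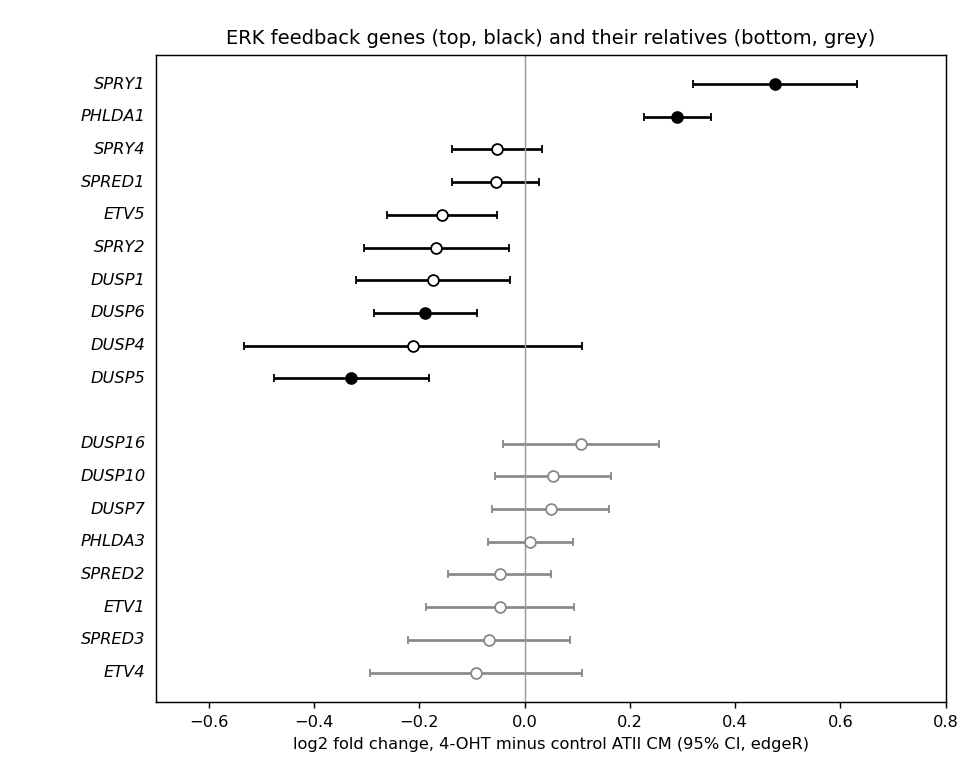
Log2 fold change (x axis, 4-OHT minus control ATII CM) with 95% confidence intervals from edgeR for the 10 feedback genes (top, black) and the 8 relatives with a mean of at least 1 CPM (bottom, grey). Filled points passed an adjusted p of 0.05, and *SPRY1* and *PHLDA1* lie to the right, *DUSP5* and *DUSP6* to the left, with no relative passing.

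Levels were compared between genes per length of merged exons, as RPKM (CPM per kilobase). In control ATII CM, *DUSP4* had the lowest level (0.518 ± 0.0744 RPKM, mean ± SD, n = 3), followed by *SPRY1* (4.34 ± 0.326 RPKM) and *SPRY2* (7.09 ± 0.247 RPKM). These 3 did not overlap each other. *ETV5* (8.17 ± 0.427 RPKM) and *SPRY4* (8.30 ± 0.218 RPKM) overlapped, as did *SPRED1* (9.79 ± 0.195 RPKM) with *DUSP6* (10.2 ± 0.230 RPKM), and *DUSP6* with *DUSP5* (10.8 ± 1.03 RPKM). *PHLDA1* (38.2 ± 0.451 RPKM) and *DUSP1* (40.6 ± 4.63 RPKM) were the most abundant and overlapped. In 4-OHT ATII CM, *PHLDA1* (46.7 ± 0.248 RPKM) was above *DUSP1* (35.9 ± 2.98 RPKM) in all libraries. *SPRY1* (6.03 ± 0.397 RPKM) there overlapped *SPRY2* (6.30 ± 0.265 RPKM) per length.

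To compare relatives free of library scaling, the log2 ratio of their counts was taken within each library for 6 pairs. The ratio of *SPRY1* to *SPRY2* was -0.33, -0.46 and -0.20 in control and 0.26, 0.33 and 0.37 in 4-OHT ATII CM, so that *SPRY1* had fewer counts than *SPRY2* in each control library and more in each 4-OHT library. The difference was 0.65 (SE 0.080). An exact permutation test (two-sided) gave p = 0.1, which is the lowest value possible with groups of 3, and 0.3 after adjustment over the 6 ratios. Without control replicate 2 the difference was 0.58. The ratio of *SPRY1* to *SPRY4* differed by 0.53 (SE 0.10, exact permutation p = 0.1, adjusted 0.3), again with no overlap. Among the phosphatases the groups overlapped. The ratio differed by -0.13 (SE 0.11) for *DUSP5* to *DUSP4*, by -0.15 (SE 0.11) for *DUSP5* to *DUSP1*, by 0.015 (SE 0.15) for *DUSP6* to *DUSP4* and by -0.012 (SE 0.11) for *DUSP6* to *DUSP1*. These 4 had exact permutation p from 0.3 to 1 and overlapping groups. Single libraries weighed on them: *DUSP5* to *DUSP4* was -0.036 without control replicate 1 and -0.23 without control replicate 3, and *DUSP5* to *DUSP1* was -0.25 without 4-OHT replicate 1 and -0.061 without 4-OHT replicate 2.

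**Figure D3:**
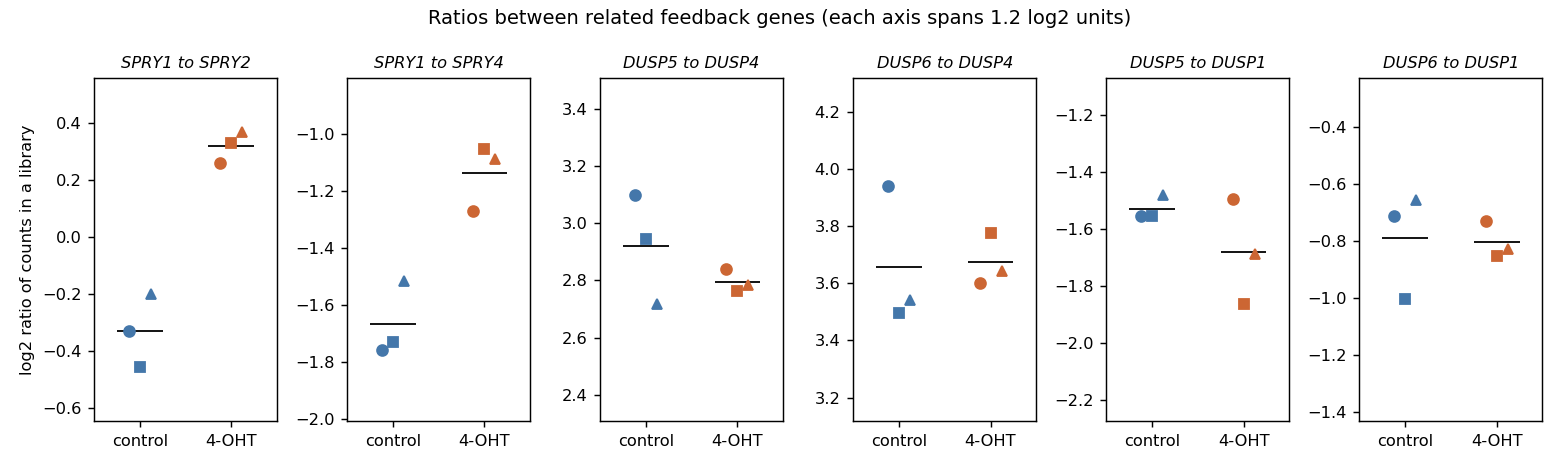
Log2 ratio of the counts of 2 feedback genes within each library (y axis, each spanning 1.2 log2 units) in control (blue) and 4-OHT ATII CM (orange), with circles, squares and triangles for replicates 1, 2 and 3 and a line at the group mean. The ratios of *SPRY1* to *SPRY2* and to *SPRY4* separate the groups, and the 4 DUSP ratios overlap.

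None of the relatives of the feedback genes passed the test in edgeR. Of 13 other members of the DUSP, Sprouty, SPRED, ETV and PHLDA families, 11 were tested and 0 passed in either direction in edgeR, with 1 below an unadjusted p of 0.05 and a median log2 fold change of 0.011, where all genes tested had 5.72% called and 17.3% below an unadjusted p of 0.05. DESeq2 and limma-voom also called 0. *PHLDA3*, the most abundant of them, was at 153.8, 159.7 and 146.1 CPM in control and at 154.4, 154.9 and 153.5 CPM in 4-OHT ATII CM. *PHLDA3* did not share the rise of *PHLDA1* (log2 fold change 0.011, adjusted p = 0.933 in edgeR). Among the phosphatases, *DUSP7*, *DUSP10* and *DUSP16* had log2 fold changes of 0.050, 0.054 and 0.11, higher by point estimate, with overlapping groups (adjusted p = 0.702, 0.669 and 0.486 in edgeR). *ETV4* and *ETV1*, the other factors of the PEA3 group, had log2 fold changes of -0.092 and -0.048 with overlapping groups (adjusted p = 0.695 and 0.787 in edgeR). *SPRED2*, a second RAS inhibitor of the SPRED family, had a log2 fold change of -0.048 (adjusted p = 0.673 in edgeR).

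The share of called genes in the RAS-ERK cascade itself was near that of all genes tested (2.95% up and 2.76% down). The list held 24 genes of adaptors, RAS exchange factors, a phosphatase, RAS, RAF, a scaffold, MEK, ERK, RSK and RAS-GAPs. All were tested, 1 was upregulated and 0 were downregulated in edgeR, DESeq2 and limma-voom (median log2 fold change -0.007). In edgeR, 5 were below an unadjusted p of 0.05, against 17.3% of all genes tested. The upregulated gene was *RPS6KA2*, which encodes the kinase RSK3 downstream of ERK. It was at 280.1, 271.5 and 293.8 CPM in control and at 316.7, 312.1 and 313.6 CPM in 4-OHT ATII CM (log2 fold change 0.16, adjusted p = 0.0134 in edgeR), and the call was lost without 4-OHT replicate 2 or 3 (adjusted p up to 0.067). *NF1*, which encodes the RAS-GAP neurofibromin, did not pass with all libraries (log2 fold change -0.20, adjusted p = 0.137 in edgeR) but did without control replicate 2, its lowest library (log2 fold change -0.31, adjusted p = 2.25e-05). *MAPK3*, which encodes the kinase ERK1, had a log2 fold change of 0.082 (adjusted p = 0.287 in edgeR).

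Of 20 other genes known as ERK targets, 0 were upregulated and 4 were downregulated in edgeR, and the groups of 9 did not overlap, against 2.95%, 2.76% and 22.1% of all genes tested. In either direction, 7 were below an unadjusted p of 0.05 (17.3% of all genes tested), and DESeq2 and limma-voom also called 0 up. By point estimate 11 of the 20 were higher and 9 lower (median 0.028 on the log2 scale). *FOSL1*, which encodes the AP-1 subunit FRA1 and accumulates under sustained ERK activity, showed the largest of these decreases. It was at 87.8, 92.9 and 83.5 CPM in control and at 65.3, 64.3 and 64.2 CPM in 4-OHT ATII CM, with a wide gap between the groups. *FOSL1* fell by 26.6% (log2 fold change -0.45, SE 0.043, adjusted p = 2e-05 in edgeR) and was called under all 15 alternatives. A similar transcript exists, *FOSL1P1*, with which reads could be shared. *CCND1*, which encodes cyclin D1 of the G1 phase, was at 828.0, 852.2 and 844.0 CPM in control and at 757.1, 752.4 and 762.6 CPM in 4-OHT ATII CM. It fell by 9.98% (log2 fold change -0.15, adjusted p = 0.00332 in edgeR) and was likewise called under all alternatives.

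*EPHA2*, which encodes an ephrin receptor, fell by 12.5% (log2 fold change -0.19, adjusted p = 0.0148 in edgeR), from 104.6 to 117.8 CPM in control to 95.2 to 98.4 CPM in 4-OHT ATII CM. Its call was lost without 4-OHT replicate 2 or 3 (adjusted p up to 0.0886), and without control replicate 2, its highest library, the log2 fold change was -0.15 (adjusted p = 0.0143 in edgeR). *MYC*, which encodes a growth-promoting transcription factor, fell by 11.5%, from 36.6 to 38.0 CPM in control to 32.5 to 33.5 CPM in 4-OHT ATII CM (log2 fold change -0.18, adjusted p = 0.0379 in edgeR). The *MYC* call held under only 6 of 15 alternatives, and its adjusted p without any 1 library or in DESeq2 was above 0.05 (up to 0.126, and 0.0631 with a log2 fold change of -0.16 without control replicate 2).

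Some immediate early genes of this list, a class to which *DUSP1* is often counted, differed between the 4-OHT libraries. The comparison was chosen after their values were seen and was not tested. As a percentage of the control mean, *EGR1* was at 61.5, 124 and 95.8% and *FOS* at 61.4, 157 and 108% in 4-OHT replicates 1, 2 and 3. In the same order, *IER2* was at 90.7, 114 and 103% and *DUSP1* at 80.8, 95.5 and 88.5%. In each of these genes, and in *JUNB* and *EGR2*, replicate 1 was the lowest and replicate 2 the highest of the 3 libraries. The order was not general: replicate 1 was the highest in *EGR3* (137, 131 and 107%, from 43 to 50 counts a library). *IER3* had too few counts for an order. *FOSL1* (74.2, 73.0 and 72.8%) and *DUSP5* (83.0, 75.8 and 79.4%) did not follow that order. Of the 10 feedback genes, 5 did: *DUSP1*, *DUSP6* (84.6, 92.0 and 86.7%), *SPRY1* (129, 147 and 142%), *SPRY2* (85.9, 93.1 and 87.8%) and *ETV5* (87.6, 93.8 and 88.1%). The share of all genes tested with this order was not computed, so the count does not show that the order is particular to these genes. The part of this order of libraries in the results of these 5 genes was not tested.

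**Figure D4:**
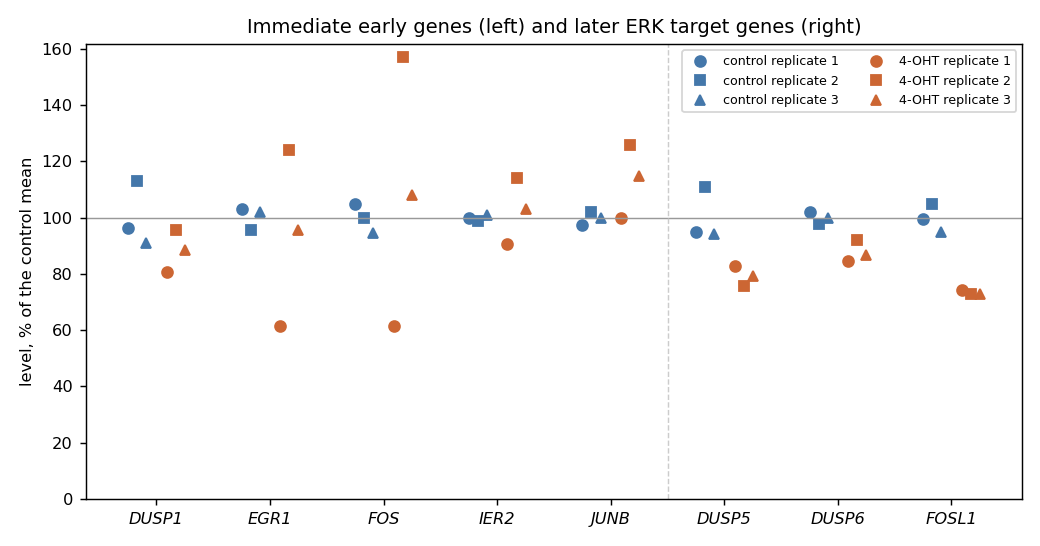
Level in each library as a percentage of the control mean (y axis, starting at 0) for immediate early genes (left of the dashed line) and other ERK target genes (right), in control (blue) and 4-OHT (orange) libraries, with symbols for replicates. 4-OHT replicate 1 is the lowest of its group in *DUSP1*, *EGR1*, *FOS*, *IER2*, *JUNB* and also *DUSP6*. All 3 4-OHT libraries lie below the controls in *DUSP5*, *DUSP6* and *FOSL1*.

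For each feedback gene that passed the test, the gene with the most similar log2 CPM profile over the 6 libraries was sought among 9201 genes with a mean of at least 10 CPM. The nearest were *PSMC3*, a proteasome subunit, for *DUSP5* (Pearson r = 0.9982), *ATXN2L* for *DUSP6* (0.9962), *SNX14* for *SPRY1* (0.996) and *TSPAN9*, a tetraspanin, for *PHLDA1* (0.9993). The nearest gene was not alone in a high r over these 6 libraries: 50 genes for *DUSP6* and 314 for *PHLDA1* were above 0.95. How often values as high as those of the nearest genes arise with 6 libraries was not tested.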

How the data were processed

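RNA-Seq of 6 MRC5 libraries, 3 per group by the sample labels, was analysed. Per the methods of the study and the labels, the authors used Trim Galore for trimming, HISAT2 2.1.0 for alignment to GRCh38 and featureCounts 1.6.5 for counting per gene. The values they deposited are raw counts and exon lengths. The strand setting is not given in the sources used here. The 10 genes, the lists and the 6 ratios were chosen with earlier results of these data known. The genes named are these 10, list genes that passed the test or are relatives or upstream kinases, the nearest profile of each called gene, and markers. Immediate early genes, and others named for low counts or a call under an alternative, were added after their values were seen. Results of some list genes are not reported here. Identifiers listed more than once (45) were summed. Genes with at least 10 counts were tested with edgeR 4.0.16 (R 4.3.3; TMM, quasi-likelihood, group as the only term, two-sided), with Benjamini-Hochberg adjustment over all genes. SEs were derived from the fold change and F statistic. DESeq2 1.42.0, limma-voom (limma 3.58.1), other scalings and filters, thinning, a replicate block and leaving out each library were alternatives. The tests were checked on simulated counts. Transcript copies were sought with minimap2 2.31. Promoter windows came from RefSeq (GRCh38.p14). Replicates differed by more than sampling noise (chi-square per degree of freedom 2.04 to 5.56).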

Additional observations from a re-analysis of the deposited data

How the results depend on the processing

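Of the 10 feedback genes, *SPRY1*, *PHLDA1*, *DUSP4*, *SPRY2*, *SPRY4* and *SPRED1* kept their direction and side of the threshold under all 15 alternatives. The number of feedback genes downregulated was 4 with no filter on low counts (27749 genes tested), 1 after thinning to the smallest library, and 1 to 3 when each library was left out, with 3 only without control replicate 2. Without the filter, 3 cascade genes were up (*RPS6KA2*, *HRAS* and *KSR1*) and 1 down (*NF1*), 1 other ERK target was up (*JUNB*), and 875 genes were up in all. These calls need caution: in edgeR, *HRAS* had an adjusted p of 3.45e-24 without the filter, against 0.163 with it. Leaving out each library gave 0 to 1 cascade genes up (*RPS6KA2*, but *HRAS* without 4-OHT replicate 3) and 0 to 1 down (*NF1*, without control replicate 2), 0 to 1 other ERK targets up (*JUNB*, without 4-OHT replicate 1) and 2 to 3 down, and 289 (without 4-OHT replicate 2) to 696 (without control replicate 2) genes up and 244 to 834 down in all. The ratio of *DUSP6* to *DUSP4* then ranged from -0.067 to 0.156 and that of *DUSP6* to *DUSP1* from -0.118 to 0.056, and both changed sign, while *DUSP5* to *DUSP4* ranged from -0.227 to -0.036 and *DUSP5* to *DUSP1* from -0.246 to -0.061. The cause of these shifts was not tested.

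Replicates share only a number: deviations of samples with the same number had correlations of -0.0193, -0.12 and -0.107, and no control library correlated best with the 4-OHT library of its own number. With a replicate block, *DUSP1* passed the threshold (log2 fold change -0.18, adjusted p = 0.0498 in edgeR), which made 3 feedback genes down, and *MYC* no longer did (adjusted p = 0.0621). Of the 10 genes, depth was lowest for *DUSP4*, with 67 to 92 counts a library.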

Other observations

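Some list genes of low count had an unadjusted p under 0.05 in edgeR but did not pass the test, among them *SPRY3*, *HRAS* and *EGR2*. *SPRY3*, the fourth Sprouty gene, had 0, 0 and 1 counts in control and 7, 3 and 4 counts in 4-OHT ATII CM (adjusted p = 0.101 in edgeR). *EGR2*, an immediate early transcription factor, had 23, 26 and 30 counts in control and 34, 59 and 58 counts in 4-OHT ATII CM, with no overlap in CPM (log2 fold change 0.68, adjusted p = 0.1 in edgeR). *HRAS*, a RAS gene with a copy on an alternate contig of the assembly, had 41, 27 and 45 counts in control and 122, 329 and 7 counts in 4-OHT ATII CM (adjusted p = 0.163 in edgeR).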
